A study of Homo sapiens with 6 samples.

Results

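Chromatin regions were ordered along labile Zn2+, from the chelator TPA through untreated control to ZnCl2, and the regions whose openness score followed that order in all 6 libraries were described. A region qualified when its 2 TPA, 2 control and 2 ZnCl2 values did not overlap and either rose or fell in this order. Of 49519 merged open regions on chromosomes 1 to 22 and X, 15851 were called open in all 6 libraries, and 1029 of those were ordered, 104 rising with zinc and 925 falling. The value compared was the percentile of a region's score within its own library's list, that is, the percent of the listed regions that scored lower.

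The libraries were made by ATAC-seq, in which Tn5 transposase cuts and tags open DNA, from MCF10A, an established non-tumorigenic human mammary epithelial line. Cells were preincubated for 30 min in a phosphate-free HEPES-buffered salt solution and then kept for 30 min with 50 µM TPA, with 30 µM ZnCl2 or untreated, with 2 libraries per condition. All groups shared the line and the preincubation, and 1 line and 1 time point limit what they stand for. The sources call the replicates biological in 1 place and technical in another, so the spread between libraries may be technical.

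Zn2+ is a structural cofactor of zinc finger proteins, among them CTCF, which organizes chromatin loops, and the SP and KLF factors, which bind GC-rich sequence at promoters. MTF1, itself a zinc finger protein, responds to a rise in labile Zn2+ by binding metal response elements (MREs) and activating metallothionein and zinc exporter genes. AP-1, a dimer of FOS, JUN and ATF proteins that binds many distal enhancers in epithelial cells, holds no zinc in its DNA-binding domain.

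The sequences below are the central 300 bases of 5 ordered regions, shown as examples of rising and falling regions. They are read from hg38 on the plus strand. The first 3 rose with zinc: an intergenic region near HTR6 (chr1:19659692-19659991), an exon of RASIP1 (chr19:48738991-48739290) and the region that overlaps the CTCF promoter (chr16:67562826-67563125). The center of that last region lies 509 bp from the CTCF start. The last 2 fell: a region within DNM3 (chr1:172321936-172322235) and an intron of the zinc transporter gene SLC39A11 (chr17:72683851-72684150). Capitals mark matches, on either strand, to TGANTCA (AP-1), GGGCGG (SP and KLF factors), CCACNAGG (the core of a CTCF site) or TGCACNC and TGCGCNC (MRE), and overlapping matches were counted.
near HTR6: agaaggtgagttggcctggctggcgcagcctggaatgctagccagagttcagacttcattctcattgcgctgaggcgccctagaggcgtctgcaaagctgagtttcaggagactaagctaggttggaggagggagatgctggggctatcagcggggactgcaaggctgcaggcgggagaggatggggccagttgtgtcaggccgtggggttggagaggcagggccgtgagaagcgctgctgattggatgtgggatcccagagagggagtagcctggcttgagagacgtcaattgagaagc
RASIP1: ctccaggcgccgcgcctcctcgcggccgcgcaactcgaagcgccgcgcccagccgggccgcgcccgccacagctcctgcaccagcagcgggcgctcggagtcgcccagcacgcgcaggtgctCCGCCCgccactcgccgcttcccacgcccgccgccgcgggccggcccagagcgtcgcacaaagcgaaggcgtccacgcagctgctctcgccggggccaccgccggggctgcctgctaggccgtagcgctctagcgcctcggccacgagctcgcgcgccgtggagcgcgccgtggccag
CTCF: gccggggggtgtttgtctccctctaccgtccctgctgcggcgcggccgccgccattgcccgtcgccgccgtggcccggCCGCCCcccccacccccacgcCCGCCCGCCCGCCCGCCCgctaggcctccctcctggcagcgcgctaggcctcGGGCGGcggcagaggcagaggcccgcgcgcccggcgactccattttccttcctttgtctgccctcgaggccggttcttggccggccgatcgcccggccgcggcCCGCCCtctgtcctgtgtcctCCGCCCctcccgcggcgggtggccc
DNM3: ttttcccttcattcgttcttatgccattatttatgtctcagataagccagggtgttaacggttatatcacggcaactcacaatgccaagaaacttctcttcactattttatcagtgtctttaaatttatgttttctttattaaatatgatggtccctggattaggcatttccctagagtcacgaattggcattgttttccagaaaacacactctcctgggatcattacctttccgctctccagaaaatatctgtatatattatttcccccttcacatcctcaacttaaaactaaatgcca
SLC39A11: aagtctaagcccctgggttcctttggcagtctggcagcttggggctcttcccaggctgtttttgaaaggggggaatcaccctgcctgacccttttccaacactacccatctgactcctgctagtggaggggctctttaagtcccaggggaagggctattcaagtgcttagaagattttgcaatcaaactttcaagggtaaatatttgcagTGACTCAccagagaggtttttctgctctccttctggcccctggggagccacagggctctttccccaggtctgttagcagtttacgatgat

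The 3 rising windows had GC contents of 59.3%, 79% and 79% and held 10, 52 and 42 CpG dinucleotides. The 2 falling windows had GC contents of 36.7% and 51.3% and held 5 and 1. The RASIP1 and CTCF windows held 1 and 8 matches to the SP/KLF motif and none to the AP-1 motif. The SLC39A11 window held 1 AP-1 match and none to the SP/KLF motif. Over all members the median window had 63.3% GC and 15.5 CpG in regions rising by percentile and 47.3% GC and 3 CpG in falling ones, so the RASIP1 and CTCF windows lie well above the typical rising region. The HTR6 and DNM3 windows held no match to any of the 4 motifs.

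The lists differed in length, which bears on every percentile. They held 35900 and 41374 regions for TPA, 25025 and 44637 for control and 38055 and 18883 for ZnCl2, and the median percentile of the 15851 shared regions was 74.2 and 77.4, 64.5 and 80.1, and 76.3 and 53.2, lowest in the shortest list. The files hold no read counts, so sequencing depth is unknown. A second scale was therefore used beside the first, the rank of a region among the 15851 shared regions of the same library in percent, on which every library has a median near 49. It was chosen after the lists had been seen. Of 11 genes that mark basal mammary epithelium, 4 had an open promoter in all 6 libraries, among them ITGA6, ITGB4 and LAMB3. Those of KRT5, KRT17 and EGFR were open in 5, those of KRT14 and CDH3 in 4 and that of COL17A1 in 2. The promoter of TP63, tested at its outermost start, was open in 0. Of the 7 luminal markers, those of KRT8, KRT18 and FOXA1 were open in all 6 and those of GATA3, ESR1, PGR and ELF5 in 0. The promoters of the 3 immune and 3 endothelial markers and of ALB were open in 0 libraries, that of COL1A1 in 1, that of PDGFRA in 2 and that of DCN in 0. An ATAC-seq score of many cells cannot tell fewer cells with an open region from less signal per cell.

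Control lay between the treatments more often than either treatment lay between the other conditions. By percentile, the order from TPA up to ZnCl2 held 104 regions, 0.656% of those shared, and the reverse order held 925, 5.84%. The orders with ZnCl2 in the middle held 112 (0.707%) and 16 (0.101%) regions, and those with TPA in the middle held 91 (0.574%) and 11 (0.0694%). Thus 1029 of the 1259 regions separated in any order, 81.7%, had control in the middle. Rising regions were no more frequent than those of the order TPA, ZnCl2, control on this scale, and the falling order stood apart.

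By rank among the shared regions, the rising and falling orders were near equal in number. The rising order held 1059 regions (6.68%) and the falling order 1097 (6.92%). The orders with ZnCl2 in the middle held 291 (1.84%) and 286 (1.8%), and those with TPA in the middle 144 (0.908%) and 218 (1.38%). Control was in the middle for 2156 of 3095 separated regions, 69.7%. The falling share of the ordered regions was 89.9% by percentile and 50.9% by rank. With every list reduced to its 18883 highest scores, 618 regions rose and 810 fell by percentile. The excess of falling over rising regions thus depended on the scale and the list length. Control was in the middle most often on both scales, at 81.7% of the separated regions by percentile and 69.7% by rank. The other orders were not counted at equal list length. The mean of the 2 control ranks lay between those of the treatments at 8139 of the shared regions (51.3%), that of ZnCl2 at 4353 (27.5%) and that of TPA at 3351 (21.1%).

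**Figure D1:**
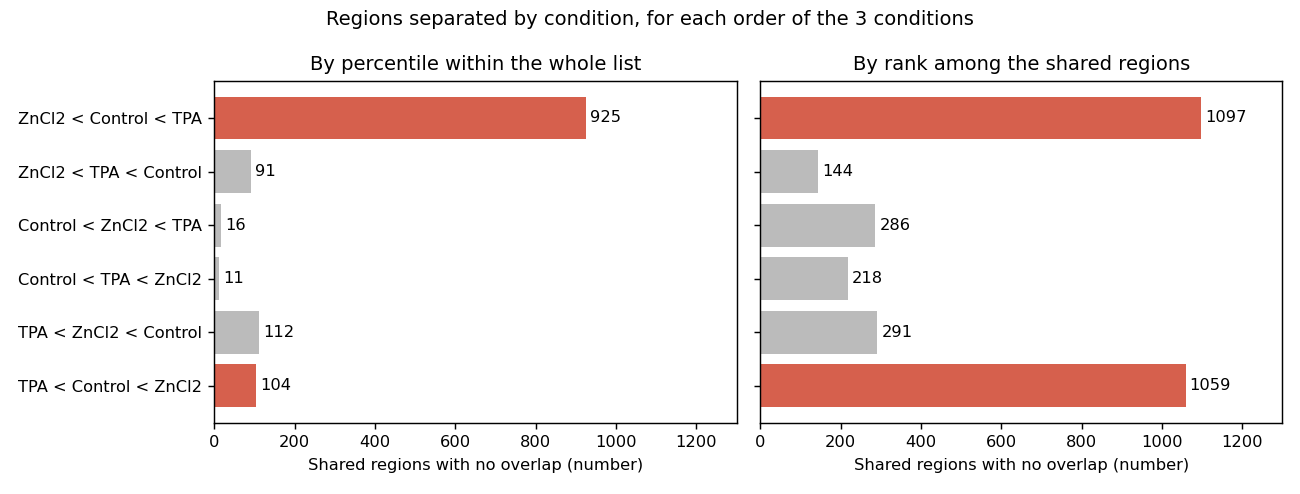
Number of shared regions (x axis) whose libraries did not overlap in each of the 6 orders of the conditions (y axis), by percentile within the whole list on the left and by rank among the shared regions on the right; colored bars have control in the middle. The falling order holds 925 and 1097 regions, and the rising order 104 and 1059.

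The same position of control showed in the libraries as wholes. The Spearman correlation of scores over the shared regions was 0.888 between the TPA libraries, 0.859 between the control libraries and 0.869 between the ZnCl2 libraries. Between conditions it was 0.738 to 0.767 for TPA and control, 0.786 to 0.820 for control and ZnCl2 and 0.608 to 0.627 for TPA and ZnCl2. Each pair from different conditions was less alike than any replicate pair, and the TPA and ZnCl2 libraries were the least alike. These are descriptions over regions of the same libraries.

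The regions that met the order on both scales were 82 rising (0.517%) and 488 falling (3.08%). They made up 78.8% of the regions rising by percentile but 7.74% of those rising by rank, and 52.8% and 44.5% of the falling ones. The median rank of the 1059 rising regions was 22.7 and 23.02 with TPA, 53.5 and 54.6 in control and 70.4 and 70.6 with ZnCl2, while that of the 1097 falling ones was 72.9 and 73.6, 53.5 and 53.4, and 28.9 and 27.2. These medians follow from the rule and only show its size: the median shift from TPA to ZnCl2 was 35.3 points up and 34.0 points down by rank (24.4 up and 30.4 down by percentile). The median SD between replicates was 4.84 and 5.05 points in the rising and falling regions and 7.11 over all shared regions.

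The rising regions with the widest separation lay mostly in or near promoters and exons of GC-rich loci. For each region the smaller of its gaps, between the TPA and control ranges or between the control and ZnCl2 ranges, was used to rank the regions ordered on both scales. The first of the 10 rising regions was intergenic (chr1:19658557-19661126), 5033 bp from the start of HTR6, which encodes a serotonin receptor. Its percentiles were 26.3 and 18.1 with TPA, 37.1 and 58.0 in control and 72.4 and 75.1 with ZnCl2, a smaller gap of 10.8 points. Both ZnCl2 libraries placed it above 70% of their lists, and both TPA libraries placed it below most of theirs.

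The promoter of GSDMD, which encodes the pore-forming protein of pyroptosis, was the second (chr8:143552961-143556000), at 41.5 and 43.7 with TPA, 81.7 and 78.4 in control and 93.8 and 89.8 with ZnCl2. A region over exons of FOXH1, a SMAD-binding factor, and KIFC2, a kinesin (chr8:144471371-144475320), stood at 41.5 and 32.2, 72.0 and 82.6, and 97.6 and 90.5. An exonic region of RASIP1, which encodes a Ras-interacting protein (chr19:48738191-48740090), stood at 21.2 and 40.1, 58.9 and 74.7, and 85.8 and 82.6. In all 3 the step from TPA to control was larger by percentile than that from control to ZnCl2. By rank this held at GSDMD and FOXH1 but not at RASIP1. The RASIP1 ranks were 3.2 and 7.3 with TPA, 42.0 and 36.8 in control and 69.7 and 81.3 with ZnCl2. The FOXH1 and RASIP1 regions also had the widest separation by rank, with smaller gaps of 30.6 and 27.6 points. Of 10 pieces of 50 bases spread over each of the 10 regions, 1 piece of the RASIP1 region was found elsewhere in the genome (9 copies in all), and none of the other 9 regions had such a piece.

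The other rising regions of the first 10 included the promoters of NAB2, a corepressor of EGR factors, with NEMP1 (chr12:57085701-57097400), and of PODXL, a sialomucin of the cell surface (chr7:131555241-131558230), an exonic region of the calcium channel subunit gene CACNA2D2 (chr3:50363201-50366960), an intron of the homeobox gene CUX1 (chr7:101855371-101857710) and the promoter of GGN with SPRED3 (chr19:38384381-38391400). Their TPA percentiles ran from 9.7 at CACNA2D2 to 64.7 at NAB2 and their ZnCl2 percentiles from 76.1 at CACNA2D2 and CUX1 to 94.2 at NAB2. The GC content of the 10 regions ran from 50.0% at CUX1 to 66.1% at RASIP1. The CUX1 window was the only one of the 10 with a CTCF match, and none had an AP-1 match.

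The falling regions with the widest separation lay far from coding starts and were AT-rich. The first (chr1:172320511-172323660) overlapped an annotated exon within DNM3, which encodes a dynamin, and its percentiles were 83.6 and 89.2 with TPA, 58.9 and 60.1 in control and 36.4 and 4.9 with ZnCl2, a smaller gap of 22.5 points. The second (chr1:233653931-233657910) lay in KCNK1, a potassium channel gene, at 80.05 and 74.7, 39.9 and 54.6, and 3.5 and 0.0. The intron of the noncoding gene LINC02133 (chr16:47731021-47734020) stood at 86.9 and 86.5, 60.8 and 63.9, and 41.9 and 13.8. In each the condition ranges lay far apart by percentile, and the second ZnCl2 library, which had the shortest list, gave the lowest percentile. By rank the smaller gaps were 8.17, 6.64 and 5.91 points. The control ranks were 42.0 and 11.8 at DNM3, 21.0 and 6.7 at KCNK1 and 44.4 and 16.6 at LINC02133. The first ZnCl2 library had the lower rank at DNM3 (2.8 against 3.6) and at LINC02133 (4.7 against 10.7).

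Of the next 7 falling regions, 4 were intergenic and lay 37201 bp from DISP1, a gene for release of Hedgehog proteins (chr1:222776981-222778660), 31580 bp from the melatonin receptor gene MTNR1B (chr11:92999771-93002690), 157172 bp from SFRP1, a secreted Wnt antagonist (chr8:41151211-41153390), and 12356 bp from DCBLD1 (chr6:117440211-117442710). The other 3 lay in introns of FRMD4B (chr3:69461541-69464600) and of the proteoglycan gene SPOCK1 (chr5:137234452-137237081) and over an exon of CYRIB, which encodes a RAC1-binding regulator of actin (chr8:129847851-129850750). Their TPA percentiles ran from 80.4 to 98.0 and their ZnCl2 percentiles from 0.0 to 53.8. CYRIB was the exception among the 10 by percentile in that the first ZnCl2 library (28.1) stood below the second (38.5). The GC content of the 10 falling regions ran from 32.4% near DISP1 to 45.6% near SFRP1, below every one of the 10 rising regions. The distance to a coding start ran from 12356 bp to 362612 bp at SPOCK1. In the region near DCBLD1, 1 of the 10 pieces of 50 bases was repeated in the genome (13 copies in all), and the other 9 regions had none.

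**Figure D2:**
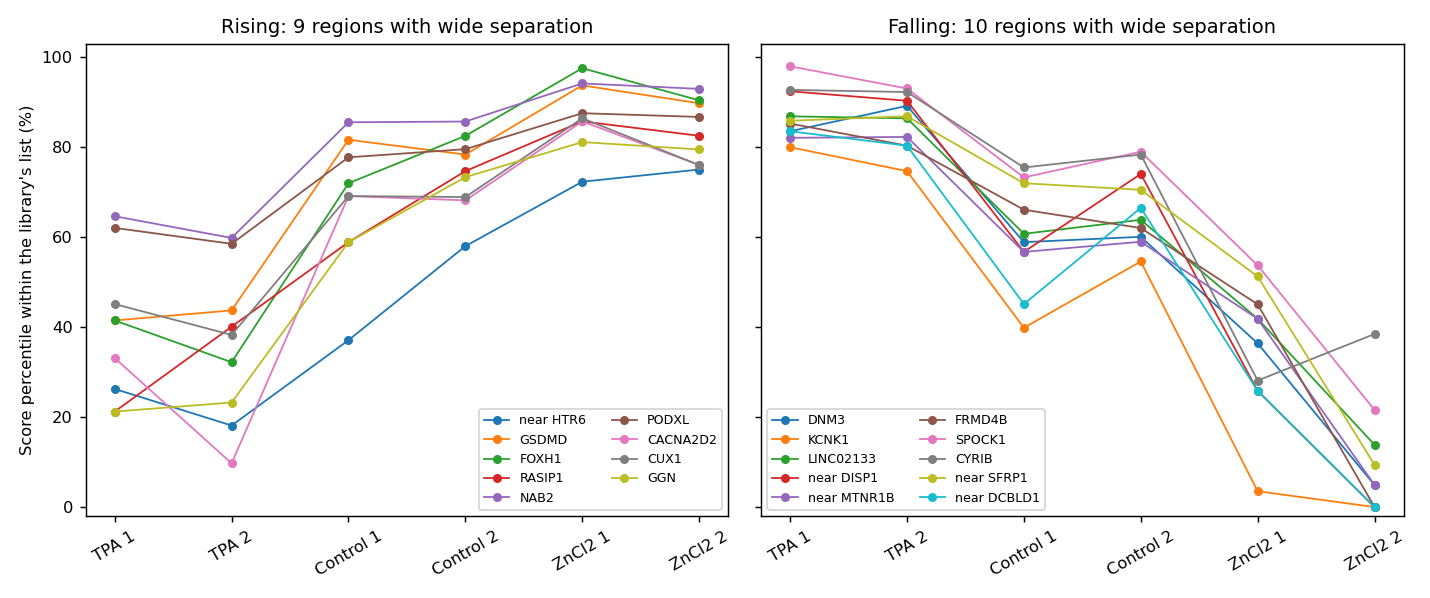
Score percentile within the library's list (y axis) in the 6 libraries (x axis) for 9 of the 10 rising (left) and the 10 falling (right) regions with the widest separation, 1 line per region named by a gene in it or nearest to it. The regions were chosen for this order; the near-HTR6 region runs from 26.3 and 18.1 with TPA to 72.4 and 75.1 with ZnCl2, and DNM3 from 83.6 and 89.2 to 36.4 and 4.9.

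Among falling promoters, named after their values were seen, the widest separation was that of MALAT1, an abundant nuclear long noncoding RNA (chr11:65495541-65502490), at 78.4 and 87.9 with TPA, 45.2 and 64.7 in control and 15.8 and 4.9 with ZnCl2. It was followed by the promoter of COL16A1, a collagen gene (chr1:31699711-31706980), at 87.4 and 84.3, 58.9 and 73.4, and 46.8 and 0.0. The promoter of CYTOR, a long noncoding RNA gene (chr2:87453821-87457710), stood at 92.5 and 88.8, 69.2 and 76.0, and 60.8 and 38.5. These promoters show that promoter regions also fell, although they were a minority of the falling regions. By rank alone, the widest falling region after those named above lay in LINC00393 (chr13:73420751-73422280). The nearest coding start, that of KLF5, was 366540 bp away. This region stood at ranks of 90.1 and 85.1 with TPA, 49.1 and 52.1 in control and 15.2 and 14.1 with ZnCl2. The next lay over CASC19 and PCAT1 (chr8:127221831-127226160), at 90.4 and 89.7, 55.5 and 58.5, and 15.2 and 17.4.

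At the edge of the rule, the 2 rising regions just inside it were the promoters of RPS6KA1, a kinase gene, at percentiles of 84.7 and 84.3, 87.0 and 89.8, and 93.1 and 89.8, and of the repressor gene CIC, at 98.7 and 98.9, 98.9 and 99.1, and 99.5 and 99.2. Just outside stood the promoter of PSME2 and RNF31, at 90.4 and 90.4, 93.0 and 93.0, and 94.4 and 93.0, and a region over mitochondrial pseudogenes on chromosome X with the highest score among the shared regions in every library. The falling regions just inside lay near PKP1, at 99.8 and 99.6, 99.6 and 99.6, and 99.6 and 98.9, and in DANT2, at 99.9 and 100, 99.9 and 99.9, and 99.9 and 65.1, values that differ beyond the decimals shown. Just outside were regions in PDE8A, at 91.1 and 83.0, 76.6 and 83.0, and 75.7 and 63.6, and KIF13A, at 71.3 and 72.1, 69.2 and 71.3, and 56.4 and 25.3. A gap of at least 5 percentile points in both steps was met by 18 rising and 207 falling regions, and by 398 and 427 by rank.

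Gene groups held few ordered regions, counted here over regions that overlap a gene or the 1000 bp upstream of it, and their shares are to be read against 0.656% and 5.84% of all shared regions rising and falling by percentile and 6.68% and 6.92% by rank. Of 11 metallothionein genes, whose products bind zinc, 2 had a shared region and neither was ordered. MT1E (chr16:56619931-56631200) stood at 43.4 and 36.3 with TPA, 34.2 and 70.6 in control and 87.9 and 25.3 with ZnCl2, and MT2A (chr16:56605661-56612170) at 80.8 and 86.5, 70.7 and 79.6, and 82.9 and 81.1. By percentile the control and ZnCl2 replicates of MT1E differed from each other by more than the condition means did. By rank MT1E stood at 12.7 and 5.8 with TPA, 16.2 and 28.0 in control and 74.2 and 20.8 with ZnCl2. On that scale both TPA values lay below all others, and control and ZnCl2 overlapped. At MT2A the TPA and ZnCl2 values overlapped while both control values lay below them.

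Of 29 regions at 21 of the 25 genes for zinc transporters and MTF1, 0 rose and 2 fell by percentile, and 1 rose and 2 fell by rank. An intron of SLC39A11, a ZIP importer gene (chr17:72682356-72685645), fell on both scales, at 95.2 and 95.2 with TPA, 87.7 and 88.4 in control and 83.8 and 66.6 with ZnCl2. A further intron of it (chr17:72714546-72716950) fell by percentile, at 93.6 and 89.98, 69.2 and 69.8, and 68.4 and 58.8. An exonic region of the importer gene SLC39A8 (chr4:102343511-102346560) rose by rank, at ranks of 5.4 and 5.1, 29.2 and 38.2, and 54.1 and 65.2. The promoter of SLC30A9 (chr4:41989451-41992710) fell by rank, at 64.9 and 69.2, 57.6 and 60.6, and 54.1 and 44.6. These 4 regions were all the ordered ones at zinc transport genes.

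Of the 11 regions at CTCF and cohesin genes, 1 rose on both scales and 0 fell. It was the promoter of CTCF itself (chr16:67561171-67564780), at percentiles of 80.05 and 86.9 with TPA, 96.2 and 96.1 in control and 98.2 and 96.5 with ZnCl2, so that control stood much nearer to ZnCl2 than to TPA. Of 24 regions at KLF and SP factor genes, 2 rose by rank (KLF2 and SP4) and 0 fell on either scale, and 0 rose by percentile. Of 293 regions at 283 of the 508 ZNF genes, which encode zinc finger proteins, 1 rose and 5 fell by percentile and 24 (8.19%) rose and 8 (2.73%) fell by rank, with a median GC content of 52.7%. ZNF276 (chr16:89717451-89724820) rose on both scales, at percentiles of 30.8 and 32.2, 74.5 and 70.6, and 88.5 and 77.9. ZNF346 and ZNF281 fell on both, with the first at 90.1 and 89.6, 74.5 and 88.4, and 73.0 and 43.9.

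Of 12 regions at genes of AP-1 factors, 0 rose and 2 fell by percentile and 2 (JUN and JUND) rose and 1 fell by rank. An intron of ATF3, an AP-1 family member induced by stress (chr1:212595101-212597270), fell on both scales, at percentiles of 97.0 and 97.9 with TPA, 89.3 and 90.1 in control and 73.7 and 68.0 with ZnCl2. Of the same gene family, a region of 36440 bp with FOSB and ERCC1 (chr19:45455201-45491640) fell by percentile, and it spans more than 1 gene. Among 20 regions at immediate early genes, ZFP36 fell by percentile and IER2 and KLF2 rose by rank. Regions at AP-1 factor genes thus met the order in both directions, the rising ones by rank only and JUN with a smaller gap of 0.025 rank points. With 12 regions, these counts are not read as a result about the family.

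The remaining groups held between 0 and 3 ordered regions in a direction on either scale. Of 27 regions at p53 targets, PHLDA3 fell on both scales, XPC fell by percentile and 3 (BTG2, CDKN1A and RRM2B) rose by rank. Of 26 regions at basal epithelial genes, S100A2 fell on both scales, at percentiles of 97.5 and 97.0, 94.7 and 94.3, and 91.2 and 77.9, and ITGB4 and DST rose by rank. BAG3 among 15 heat shock regions, RPL14 among 66 ribosomal protein regions and a region at HOXA3 and HOXA5 among 4 HOX regions fell on both scales. HSP90AB1 and HSF1 rose by rank. Among 12 regions at NRF2 targets 2 rose and 1 fell by rank, among 18 at YAP and TEAD genes TEAD3 rose and CCN2 fell by rank, and of 22 at histone genes H1-2 fell by percentile. None of these counts is read as more than a description.

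The composition of the ordered regions differed from that of the shared regions at large, on a measure that the rule did not use. GC content had a median of 50.7% over all shared regions, 56.7% in the rising and 45.9% in the falling regions by percentile, and 55.3% and 45.7% by rank. The ratio of observed to expected CpG had a median of 0.41 over all, 0.484 and 0.220 by percentile, and 0.567 and 0.217 by rank. When all shared regions were divided by GC content into 10 groups of equal size, rising regions by rank made up 0.820% of the lowest group and 14.5% of the highest, and falling regions 15.9% of the lowest and 1.45% of the highest. By percentile the rising share went from 0% to 2.02% and the falling share from 13.6% to 1.14%. The change was gradual, and the direction was that of GC content on both scales.

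**Figure D3:**
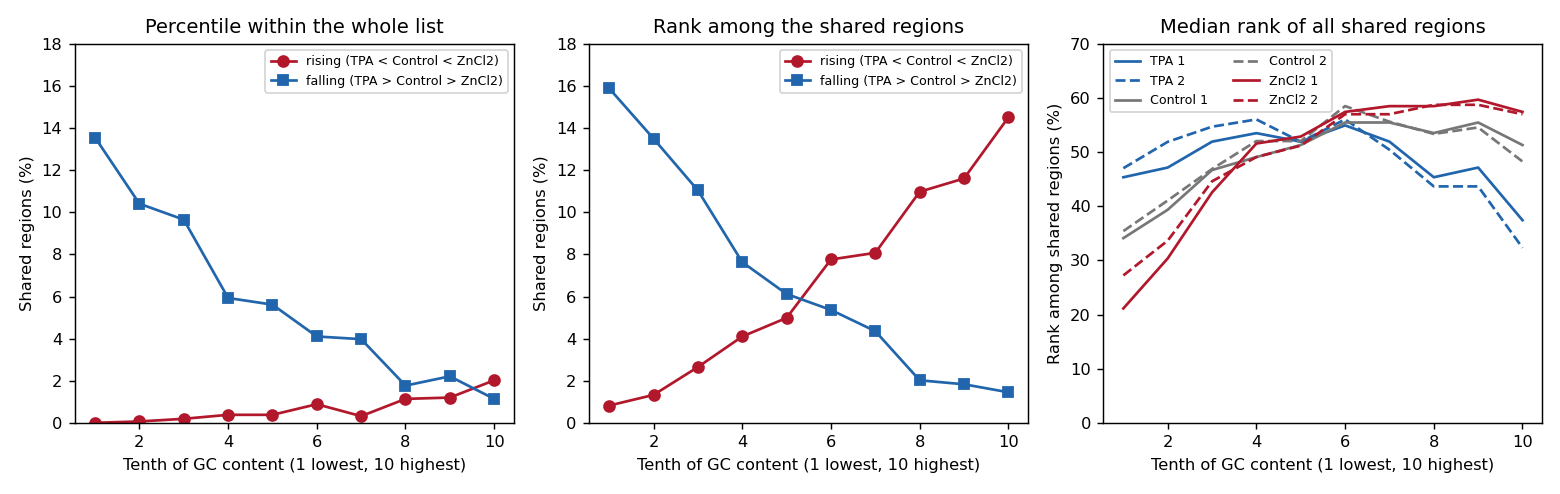
Share of shared regions that rose or fell (y axis, percent) by group of GC content (x axis, 10 groups of equal size) by percentile (left) and by rank (middle), and the median rank of all shared regions in each library (right). By rank the rising share goes from 0.820% to 14.5% and the falling share from 15.9% to 1.45%; in the lowest group the median ranks are 45.4 and 47.0 with TPA, 34.1 and 35.4 in control and 21.1 and 27.2 with ZnCl2.

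The same gradient ran through all shared regions, ordered or not. In the lowest of the 10 GC groups the median rank was 45.4 and 47.0 with TPA, 34.1 and 35.4 in control and 21.1 and 27.2 with ZnCl2. In the highest it was 37.4 and 32.3, 51.3 and 48.3, and 57.4 and 57.0. The Spearman correlation of score with GC content, 1 value per library, was -0.04 and -0.11 with TPA, 0.15 and 0.11 in control and 0.29 and 0.24 with ZnCl2. ZnCl2 exceeded TPA by 0.34, with a two-sided exact permutation p of 0.0222 over the 90 ways to assign 6 libraries to 3 groups of 2, which is the smallest p this design allows (0.0296 after Benjamini-Hochberg adjustment over 8 such trends). The statistic was the difference in means, and the conditions did not overlap.

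Position relative to genes went with the order as well. A promoter was the 1000 bp upstream of a gene's start. Of all shared regions 48.2% overlapped one, of the rising regions 59.6% by percentile and 69.7% by rank, and of the falling ones 16.0% and 17.2%. Introns held 16.4% of all, 2.88% and 3.97% of the rising and 32.0% and 29.8% of the falling regions, and intergenic sequence 18.6% of all, 11.5% and 7.74% of the rising and 34.2% and 34.2% of the falling regions. Exonic regions outside promoters were divided evenly by rank, with 197 of 2654 rising (7.42%) and 206 falling (7.76%). By percentile 27 of them rose (1.02%) and 165 fell (6.22%), while 62 of 7642 promoter regions rose (0.811%). The median distance to a coding start was 8459 bp over all shared regions, 972 bp in those rising by rank and 43566 bp in those falling.

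Both features went with the order by rank when the other was held within bounds. In the lowest of the 10 GC groups, 16.8% of the 1455 regions outside promoters and 6.11% of the 131 promoter regions fell by rank. In the highest, 12.4% of the 469 regions outside promoters and 15.4% of the 1116 promoter regions rose. By rank, falling regions were thus less frequent at promoters than elsewhere also at like GC content, and GC-rich regions rose outside promoters too. By percentile, promoters in the highest group did not rise more often, at 1.97% against 2.13% outside them. Falling was near equal there, at 1.16% and 1.07%. In the lowest group 3.82% of promoter regions and 14.4% of the others fell by percentile. Outside promoters the correlation of score with GC content was -0.05 and -0.12 with TPA, 0.10 and 0.04 in control and 0.32 and 0.24 with ZnCl2. At promoters it was -0.12 and -0.20, -0.01 and -0.09, and -0.01 and 0.01, where control and ZnCl2 nearly met.

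The chance that a promoter region outscored another shared region, which is 50% when promoters rank like the rest, was 55.2% and 56.3% with TPA, 66.1% and 69.5% in control and 71.5% and 69.5% with ZnCl2. ZnCl2 exceeded TPA by 14.7 points (exact permutation p = 0.0444, adjusted p = 0.0508), so the trend missed the threshold after adjustment, and control and ZnCl2 overlapped. Score and region width were correlated at 0.177 and 0.167 with TPA, 0.277 and 0.266 in control and 0.277 and 0.266 with ZnCl2, and this difference of 0.10 missed the threshold (exact permutation p = 0.0667, adjusted p = 0.0667). Rising regions by rank were wider than the median called width of shared regions in every library, at 112% to 115% of it, and falling ones narrower, at 89.6% to 95.1%.

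The motifs searched in the central 300 bp followed the order as well. An AP-1 match stood in 17.5% of all shared regions, in 8.65% and 6.33% of the rising regions by percentile and by rank, and in 32.3% and 30.8% of the falling ones. An SP/KLF match stood in 34.2% of all, in 50.0% and 52.4% of the rising and in 10.9% and 11.8% of the falling regions. An MRE match stood in 27.8% of all, in 37.5% and 33.3% of the rising and in 21.1% and 21.8% of the falling regions. A CTCF match stood in 5.69% of all, in 10.6% (11 of 104) and 6.52% of the rising and in 5.95% and 5.93% of the falling regions, so that it set only the regions rising by percentile apart. A match is a string of letters and not a bound site.

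Over all shared regions, the chance that a region with an AP-1 match outscored one without was 48.7% and 48.8% with TPA, 40.8% and 38.7% in control and 35.3% and 37.0% with ZnCl2, a fall of 12.6 points from TPA to ZnCl2. For the SP/KLF motif it was 49.9% and 49.7%, 58.9% and 60.5%, and 64.2% and 62.6%, a rise of 13.6 points. The conditions did not overlap for either motif. For the MRE it was 49.2% and 48.9%, 52.1% and 52.3%, and 54.4% and 54.1%, a rise of 5.16 points, and for CTCF it was 48.2% and 48.2%, 49.5% and 49.5%, and 50.9% and 51.1%, a rise of 2.83 points. Each of the 4 motif trends had an exact permutation p of 0.0222 and an adjusted p of 0.0296. The CTCF difference was the smallest of them, and among the upper 50% of each list it was 0.528 points (exact permutation p = 0.556). At promoters alone the CTCF values were 49.1% and 50.7% with TPA, 51.0% and 50.5% in control and 50.2% and 50.2% with ZnCl2, with no such order, and outside promoters they were 47.4% and 46.1%, 48.9% and 49.2%, and 52.7% and 52.7%. The other motifs moved less at promoters than over all shared regions. From TPA to ZnCl2, AP-1 went from 51.0% and 51.7% to 44.7% and 46.2% there. SP/KLF went from 48.0% and 47.7% to 52.5% and 52.5%, and the MRE from 47.9% and 47.5% to 49.2% and 49.6%. Outside promoters AP-1 went from 50.8% and 51.5% to 42.6% and 43.5%, and SP/KLF from 46.3% and 44.9% to 63.7% and 61.3%.

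**Figure D4:**
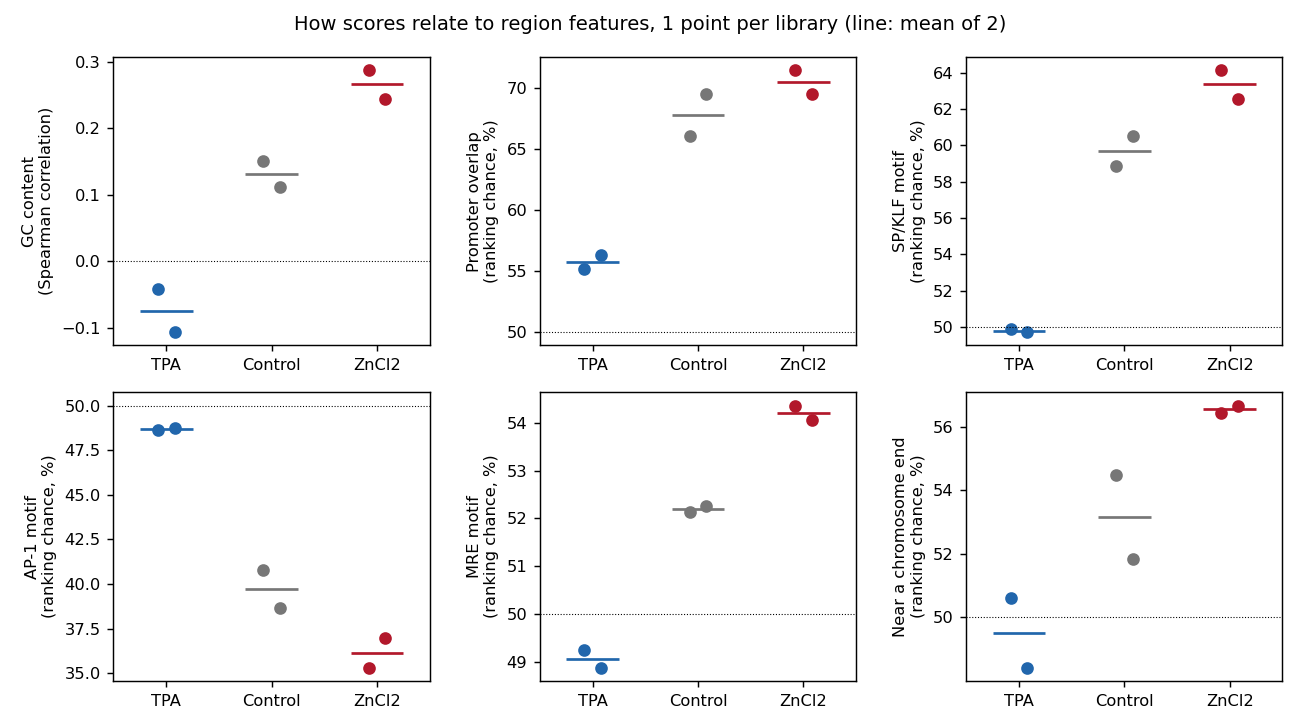
Value per library (y axes) for TPA, control and ZnCl2 (x axes; 2 points each, line at their mean) of the correlation of score with GC content and of the chance that a region with a feature outscores one without, over 15851 shared regions; dotted lines mark 0 or 50%. GC runs from -0.11 to 0.29 and the AP-1 motif from 48.8% down to 35.3%, while control and ZnCl2 overlap for promoters.

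The motifs themselves differ in GC content, so their values were also taken at like GC content. Outside promoters, falling by rank was as frequent with an AP-1 match as without in the lower of 3 GC groups, at 16.1% and 16.0%, and somewhat more frequent in the middle group, at 13.2% and 11.6%, and in the upper group, at 6.39% and 4.79%. By percentile the shares with and without were 13.96% and 12.6%, 12.1% and 10.5%, and 6.16% and 3.96%. Rising by rank was less frequent with an AP-1 match than without in each group, at 0% and 0.665%, 1.44% and 3.52%, and 3.65% and 9.36%. With an SP/KLF match, falling was less frequent in the middle group (3.92% against 13.3%) and the upper group (3.53% against 5.83%). The MRE made little difference at like GC content, with 8.53% of regions with a match and 8.41% of those without rising in the upper group. With a CTCF match, falling by rank was at 17.9% against 16.0% without in the lower group. It was at 14.2% against 11.97% in the middle group and 7.14% against 4.84% in the upper. Rising by rank was at 0% against 0.416%, 1.94% against 2.94% and 10.1% against 8.29% in the lower, middle and upper groups. These groups held 95, 155 and 238 regions with a CTCF match. How far GC content carries the motif trends was not tested.

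Ordered regions were unevenly placed. Regions centered within 2 Mb of a chromosome end made up 5.26% of all shared regions, 14.4% (15 of 104) and 8.03% of the rising regions by percentile and by rank, and 2.70% and 2.19% of the falling ones. The chance that such a region outscored another was 50.6% and 48.4% with TPA, 54.5% and 51.9% in control and 56.4% and 56.7% with ZnCl2, a difference of 7.03 points (exact permutation p = 0.0222, adjusted p = 0.0296). Among the upper 50% of each list it was 3.63 points and missed the threshold (exact permutation p = 0.0889).

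By chromosome, falling regions by rank were most frequent on chromosome 8 (12.5%), 13 (11.02%), 1 (10.96%) and 5 (9.59%) and least on 19 (1.46%) and 22 (2.84%). Chromosomes 8 and 13 had median GC contents of 47.8% and 47.6% in their shared regions and chromosomes 19 and 22 of 56.1% and 55.2%. Not all chromosomes followed GC content: chromosome 4, at 48.0%, had 5.52% falling, and chromosome 1, at 49.5%, had 10.96%. Rising regions were most frequent on X (11.8%) and 22 (9.46%) and least on 8 (4.44%) and 17 (4.96%), so that chromosome 17, with a median GC content of 54.6%, was low in both directions.

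**Figure D5:**
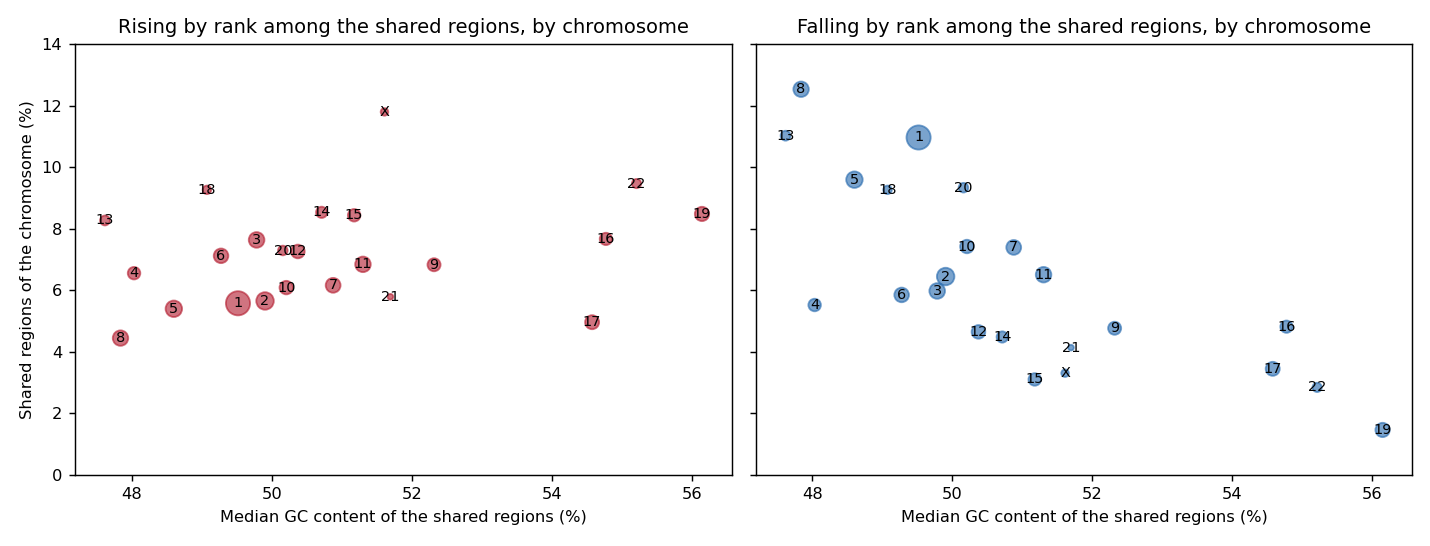
Share of a chromosome's shared regions that rose (left) or fell (right) by rank (y axis, percent) against the median GC content of its shared regions (x axis, percent), with the point area in proportion to their number. Falling regions make up 12.5% on chromosome 8 and 1.46% on chromosome 19, and rising ones 11.8% on X and 4.44% on chromosome 8.

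Chromosome 1 held most of its falling regions on 1 side of its widest gap between shared regions. Of 1279 shared regions after that gap (from 143184691), 193 fell by rank (15.1%), against 43 of 874 before it (4.92%), and by percentile the shares were 14.3% and 4.005%. The median rank of all shared regions after the gap was 71.0 and 77.3 with TPA, 70.6 and 69.9 in control and 64.5 and 62.0 with ZnCl2, above 50 in all 6 libraries, and their median GC content was 47.6%, against 52.0% before the gap. The part of GC content in this was not tested. Of the 10 falling regions with the widest separation, DNM3, KCNK1 and the region near DISP1 lie there. Chromosomes 8 and 5 after their widest gaps also had median ranks above 50 in all 6 libraries, with 13.5% and 9.72% falling by rank. The same held for chromosomes 7 and 11 after theirs, with 7.36% and 6.04% falling, against 6.92% of all shared regions. Chromosome 14 before its widest gap had such ranks too, with 0.893% falling.

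Neighboring regions tended to move alike. Of the regions falling by rank, 19.6% had a falling region next to them among the shared regions, compared with 13.1% of all shared regions, and for rising regions the shares were 16.5% and 12.9%. By percentile 24.3% of the falling regions and 11.02% of all had a falling neighbor, and 2 of the 104 rising regions (1.92%) had a rising one, compared with 1.31% of all. A falling region had a rising neighbor less often than the average region by rank, at 9.57% against 12.9%.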

How the data were processed

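The authors trimmed adapters with BBDuk, checked reads with FastQC 0.11.8, mapped read pairs with HISAT2 2.1.0 to hg38, used SAMtools 1.8 and ran HMMRATAC per library, without pooling, to find open chromatin, after combining repeated sequencing runs of the same library (tools and versions from the submitters' processing notes and the study's methods). The deposited lists give each region's position and a whole-number score of at least 30, set by the authors' caller. Its version and the kind of score are not given in the sources used here. Scores need not be on 1 scale across libraries, so they were used only to rank regions within a library. The study removed blacklisted regions at a later step, which was not applied here. Read counts were not analysed here, so depth is unknown and no counting interval is given.

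Calls on chromosomes 1 to 22 and X that overlapped by 1 bp or touched were merged. A merged region took the highest score of its calls in a library (86.1% of shared regions had 1 call in each), and ties took the lowest percentile. Gene models were those of GENCODE release 44, of whose 62700 genes the 40530 found in RefSeq too were kept, with each gene's outermost start. GC content and motifs came from the hg38 sequence, the motifs from the central 300 bp. Counts of ordered regions are descriptions without a test. Each of 8 trends gave 1 value per library and was tested by a two-sided exact permutation test over 90 assignments, adjusted by Benjamini-Hochberg. Regions were named by rule: the 10 per direction with the largest smaller gap among regions ordered on both scales, every ordered region at a listed gene (4 examples at most for families listed by a pattern of symbols), MT1E and MT2A, and 2 regions on either side of the rule's edge in each direction. A few of these items, among them 1 of the 10 rising regions, are not reported here. Regions named by rank alone and the falling promoters were chosen after their values were seen. The ordered regions, gene lists and tests were chosen with earlier results of these data known, among them a relation of score to GC content, so they give no independent support for those results. Alternatives covered ties, scores weighted by width, equal list lengths, the upper 50% of each list, cover of at least 50%, 1 call per library, all contigs, a gap of at least 5 points, the replicate block, leaving out each library, and other bounds for chromosome ends, motif windows and promoters. The procedures were tested on simulated data. Python 3.11.15 was used with pandas 2.3.3, pysam 0.24.0, NumPy 2.4.6, Matplotlib 3.10.9 and SciPy 1.17.1, and merging was checked with bedtools 2.31.1.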

Additional observations from a re-analysis of the deposited data

How the results depend on the processing

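The counts of ordered regions depended on the lists more than the trends did, and the number of shared regions also differed between settings. The main rule gave 104 rising and 925 falling regions by percentile, of 15851 shared. The upper 50% of each list gave 64 and 450 of 7313. Cover of at least 50% by the calls of every library gave 35 and 377 of 6551. A gap of at least 5 points gave 18 and 207 of 15851. On the rank scale 1059 rose. With an equal number of regions per list (18883), 618 rose and 810 fell by percentile, of 11179 shared. By rank, in place of 1059 and 1097 of 15851, equal lists gave 662 and 726 of 11179 shared regions. The upper 50% gave 428 and 465 of 7313, cover of at least 50% gave 452 and 483 of 6551 and the gap gave 398 and 427 of 15851. These settings keep fewer shared regions or a stricter rule by construction, except that the cause of the rise to 618 was not tested. Leaving out 1 library in turn eases the rule and gave 123 to 1186 rising and 1161 to 2896 falling regions by percentile, and 1417 to 2194 and 1470 to 2179 by rank. The highest rising count, 1186, came without ZnCl2 replicate 2, the shortest list, and the highest falling count, 2896, without ZnCl2 replicate 1.

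None of the 102 alternatives that can change a trend's value reversed it, and 24 others leave the value as it is by construction. Without 1 library the differences from TPA to ZnCl2 ran from 0.32 to 0.38 for GC content, 13.7 to 15.4 for promoters, 6.07 to 8.22 for chromosome ends, -13.0 to -11.4 for AP-1, 1.88 to 4.03 for CTCF, 12.8 to 14.9 for SP/KLF, 4.89 to 6.22 for the MRE and 0.091 to 0.124 for width. Without either control library no trend can pass 0.05, since 30 assignments allow no exact permutation p under 0.0667. The promoter trend also missed 0.05 without TPA replicate 2 (15.4, exact permutation p = 0.0667) and ZnCl2 replicate 1 (13.7, p = 0.1), as did the chromosome end trend without ZnCl2 replicate 1 (7.08, p = 0.0667), while the width trend passed it without ZnCl2 replicate 2 (0.124, p = 0.0333). Among the upper 50% of each list the chromosome end trend was 3.63 and the CTCF trend 0.528, neither past the threshold. The width trend passed it with scores weighted by call width (0.116) and on all contigs (0.0993), each with an exact permutation p of 0.0444 before adjustment.

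The replicate numbers were not taken as pairs: differences between replicates 1 and 2 correlated at 0.133 for TPA and control, 0.045 for TPA and ZnCl2 and 0.035 for control and ZnCl2. With the replicate block, which asks for the order only within each number, 171 regions rose by percentile and 1673 rose and 1725 fell by rank. The replicate block leaves each trend's value as it is by construction (0.34 for GC content, 14.7 for promoters, 7.03 for chromosome ends, -12.6 for AP-1, 2.83 for CTCF, 13.6 for SP/KLF and 5.16 for the MRE), and with 36 assignments the smallest possible p is 0.0556, so no trend can pass 0.05 there.

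Unknown depth, lists of unequal length and 2 libraries per condition limit every count, and the median percentile of all shared regions was lowest in the shortest list.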
